A study of Homo sapiens with 8 samples.

Results

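Introns of genes that the cell transcribes are normally spliced out and degraded in the nucleus, so that RNA from introns makes up a small part of a poly(A) library. An assembler that joins RNA-seq reads into transcripts reports an intronic stretch as a transcript of its own, with 1 exon, when reads pile up there without a splice junction that ties them to the neighbouring exons. Such transcripts can come from unspliced or partly degraded pre-mRNA, from retained introns, from independent short genes, or from reads of another gene that align to a copy of its sequence. The transcripts described here have 1 exon on chromosomes 1 to 22 or X of GRCh38, lie wholly inside the body of a GENCODE release 44 protein-coding or lncRNA gene (the host), and overlap no annotated exon on either strand. They numbered 16836 of the 236633 transcripts assembled in 8 libraries.

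The libraries were made from HepG2 cells and from cells labelled Hep3B, which are both human HCC lines. Each line was cultured for 48 h as an untreated control, with NaB (sodium pentaborate pentahydrate, 2500 µM for HepG2 and 1700 µM for Hep3B), with 30 µM Cur (curcumin) and 6 µM Pip (piperine), or with all 3 agents (combination treatment). There was 1 library per condition and line, RNA was isolated in triplicate according to the methods, and whether the isolates were pooled is not given in the sources used here. Differences between conditions within a line therefore have no replicate check. Estimated depth, in units of 1000000 fragments, was 25.6 to 35.7 per library, lowest after the combination treatment in HepG2 and highest after it in the cells labelled Hep3B. Of 30 hepatocyte genes, 29 reached an FPKM of 1 in some HepG2 library and 6 in some library labelled Hep3B, where APOB and TTR were among 15 genes listed at 0. Their summed FPKM was 7872 to 17674 in HepG2 and 86.9 to 517.8 in the other line. Of 8 fibroblast genes, 5 reached an FPKM of 1 in the libraries labelled Hep3B and 1 in HepG2, with sums of 38.9 to 305 and 2.29 to 6.03 FPKM. COL1A2, PDGFRA and THY1 were at 0 in every library labelled Hep3B. Of 8 leukocyte genes, 2 reached that level in each line, with sums of 1.17 to 46.0 FPKM under the label Hep3B and 150.4 to 1394 FPKM in HepG2. Of 7 endothelial genes, 1 did so under the label Hep3B and 0 in HepG2. The label Hep3B is used below as a name of the libraries only.

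Of the 19 intronic regions that were assembled in all 8 libraries, the 3 with the highest mean levels are shown by their central 300 bases on the host strand, because each matches the spliced transcript of another gene. Capitals mark the hexamer AATAAA, the common polyadenylation signal, and would also mark runs of 10 A. The regions lie in introns of DOCK9 (an activator of the GTPase CDC42; chr13:98812385-98812684, minus strand), DZIP1 (a protein of the ciliary base; chr13:95619374-95619673, minus strand) and MLIP (a lamin-binding protein of muscle; chr6:54210052-54210351, plus strand) of GRCh38. The transcript in DZIP1 was assembled on the strand opposite to the host, so the bases shown are its reverse complement.
DOCK9: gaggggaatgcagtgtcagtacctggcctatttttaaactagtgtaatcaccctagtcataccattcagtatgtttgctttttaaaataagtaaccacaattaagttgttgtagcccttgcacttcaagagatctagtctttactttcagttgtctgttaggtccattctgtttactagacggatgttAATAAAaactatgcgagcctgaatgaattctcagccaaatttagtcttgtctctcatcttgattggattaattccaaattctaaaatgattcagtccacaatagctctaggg
DZIP1: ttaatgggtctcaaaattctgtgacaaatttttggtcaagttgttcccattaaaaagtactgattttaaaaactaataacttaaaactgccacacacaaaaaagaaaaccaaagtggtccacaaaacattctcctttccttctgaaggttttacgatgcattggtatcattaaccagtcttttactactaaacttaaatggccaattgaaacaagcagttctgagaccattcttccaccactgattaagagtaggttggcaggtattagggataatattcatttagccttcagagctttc
MLIP: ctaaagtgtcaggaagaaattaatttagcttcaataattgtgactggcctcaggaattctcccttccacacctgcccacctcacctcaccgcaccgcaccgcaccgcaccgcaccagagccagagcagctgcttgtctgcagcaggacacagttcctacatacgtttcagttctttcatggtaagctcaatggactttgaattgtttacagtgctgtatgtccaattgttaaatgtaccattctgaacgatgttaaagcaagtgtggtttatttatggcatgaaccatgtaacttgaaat
The first of the sequences holds 1 AATAAA and the others hold none on this strand, and their GC content is 36.7%, 34.7% and 44.7%. Over 97.2% of its length the region in DOCK9 is 99.9% identical to a transcript of AIDA, an axin-binding protein on another chromosome. The region in DZIP1 is 97.7% identical to a transcript of EEF1A1, a translation elongation factor, over 90.3% of its length. The region in MLIP is 98.4% identical to a transcript of LCLAT1, an acyltransferase of cardiolipin remodelling, over its whole length. Sequences like these occur at 3, 17 and 2 places in the genome, respectively. Reads from such near-identical copies cannot be told apart with certainty, so the levels of these regions are uncertain.

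The number of intronic single-exon transcripts differed between conditions by more than any other transcript class in HepG2. The HepG2 control held 987, the NaB library 1760, the Cur and Pip library 4520 and the combination library 3960. The control labelled Hep3B held 665, the NaB library 1091, the Cur and Pip library 1431 and the combination library 2422. All 3 treated libraries of each line held more than the control of that line, by ratios of 1.78, 4.58 and 4.01 in HepG2 and 1.64, 2.15 and 3.64 in the cells labelled Hep3B. Over the same libraries the number of multi-exon transcripts changed by ratios of 1.004 to 1.11. Single-exon transcripts that overlap an annotated exon changed by ratios of 1.31 to 2.19, and those outside annotated genes by 1.38 to 3.70, which in the combination library labelled Hep3B was slightly above the ratio of the intronic transcripts. As a share of all transcripts, the intronic ones made up 3.78%, 6.13%, 12.3% and 11.7% in HepG2 and 2.68%, 4.15%, 4.997% and 7.70% in the cells labelled Hep3B, in the order control, NaB, Cur and Pip, combination.

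**Figure D1:**
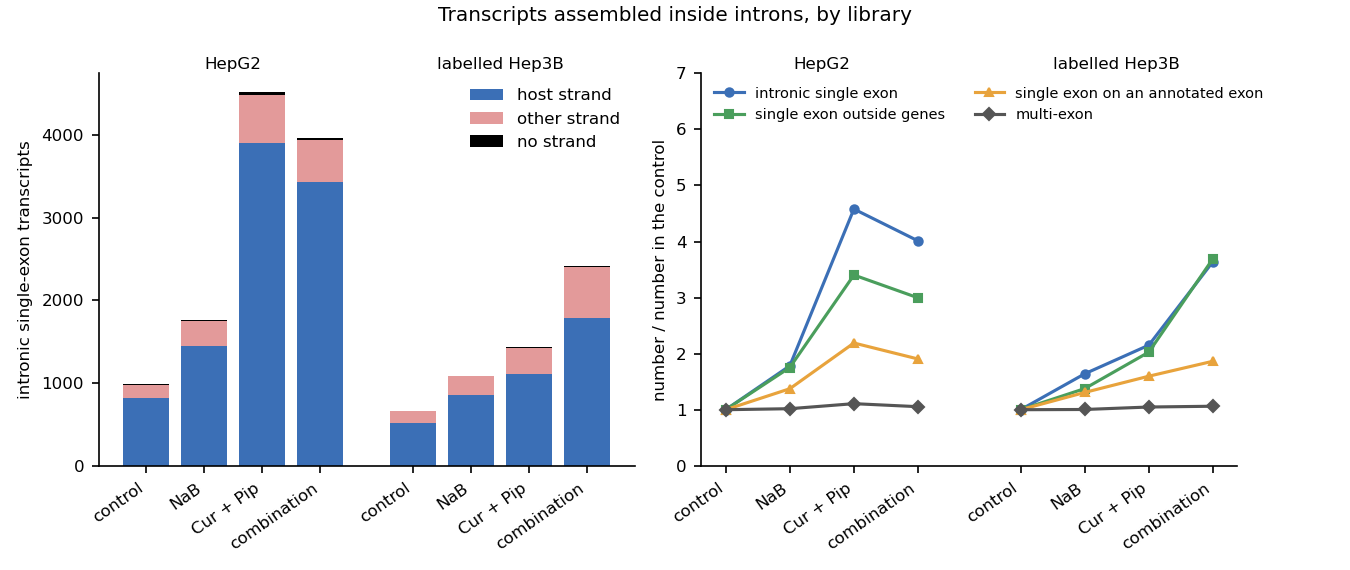
Left, number of intronic single-exon transcripts per library, split by strand relative to the host gene (stacked bars). Right, number of transcripts of each class divided by the number in the control of the same line; the intronic class reaches 4.58 in HepG2 after Cur and Pip and 3.64 in the cells labelled Hep3B after the combination treatment, while multi-exon transcripts stay between 1.004 and 1.11.

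With the treatments taken as factors over all 8 libraries, the 4 libraries with Cur and Pip held 3083 ± 1414 intronic transcripts (mean ± SD, n = 4 libraries) and the 4 without held 1126 ± 460 (n = 4). Adding Cur and Pip went with a higher number in each of the 4 matched pairs (same line, same NaB), but the groups overlapped: the lowest value with Cur and Pip, 1431, was below the highest without, 1760. The difference of 1958 had an exact two-sided permutation p of 0.0571 over all 70 ways of dividing the libraries 4 against 4, and 0.171 after Benjamini-Hochberg adjustment over 6 tests. The smallest p that this design allows is 0.0286. With NaB the number was higher in 3 of 4 matched pairs, at 2308 ± 1228 with and 1901 ± 1774 without it (n = 4 libraries each), with an exact permutation p of 0.657. HepG2 libraries held 2807 ± 1700 and those labelled Hep3B 1402 ± 749 (n = 4 each), with an exact permutation p of 0.229. Within each line, both libraries with Cur and Pip held more than both without, and permuting within lines gave an exact two-sided p of 0.0556, the smallest that 36 arrangements allow. HepG2 held more than the cells labelled Hep3B under each of the 4 conditions, and permuting within conditions gave an exact p of 0.125, the smallest that 16 arrangements allow. The difference between the lines was 1404, and 833 without the HepG2 Cur and Pip library. Shares of all transcripts gave the same order, with 9.18% ± 3.46 with Cur and Pip and 4.18% ± 1.44 without (SD, n = 4 each), and an exact permutation p of 0.0571. None of these 6 differences passed adjustment, and none could. The smallest exact permutation p can be reached by only a single factor for each measure, and it is then 0.0857 after adjustment. Estimated depth, in units of 1000000 fragments, was 33.2, 30.5, 30.4 and 25.6 in HepG2 (control, NaB, Cur and Pip, combination). In the cells labelled Hep3B it was 33.4, 32.2, 31.4 and 35.7. The deepest library held the most intronic transcripts in the cells labelled Hep3B but not in HepG2. This depth counts assembled transcripts of at least 300 nt and not sequenced reads, and its part in the number was not tested. Per 1000000 fragments, the HepG2 libraries held 29.7, 57.6, 148.7 and 154.6 intronic transcripts and those labelled Hep3B 19.9, 33.9, 45.6 and 67.9, in the same order of conditions.

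The intronic transcripts were short and weakly covered. Their median length was 1243 nt in the HepG2 control, 1144 nt after NaB, 777 nt after Cur and Pip and 928 nt after the combination treatment. In the cells labelled Hep3B it was 1260, 1015, 884 and 804 nt in the same order, so that each treated library had a lower median than its control. Multi-exon transcripts of the same libraries had medians of 2487 to 2779 nt. The median FPKM was 0.514, 0.577, 0.977 and 0.943 in HepG2 and 0.502, 0.683, 0.776 and 0.755 in the cells labelled Hep3B. FPKM, fragments per kilobase of transcript and per 1000000 mapped fragments, is a level per length, and multi-exon transcripts had medians of 2.96 to 4.14. An FPKM of at least 1 was reached by 24.4% of the intronic transcripts in the HepG2 control and by 48.9% after Cur and Pip, and by 23.8% and 37.9% in the control and combination libraries labelled Hep3B.

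The depth behind a single transcript was nearly the same in every library. The median was 23.5 to 29.7 estimated fragments (coverage times length divided by the 300 bases of a read pair), with lower quartiles of 17.8 to 20.8. The 95% interval that Cufflinks gives extended, in the median transcript, to 50 to 52.1% of the FPKM to either side. Median coverage was 5.88, 6.18, 11.3 and 9.002 in HepG2 and 5.46, 7.29, 8.52 and 9.50 in the cells labelled Hep3B. Their share of all fragments followed their number: the intronic transcripts held 0.113%, 0.235%, 0.655% and 0.654% of the fragments of the HepG2 libraries and 0.0844%, 0.183%, 0.259% and 0.326% of those labelled Hep3B. These shares count transcripts of at least 300 nt only.

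**Figure D2:**
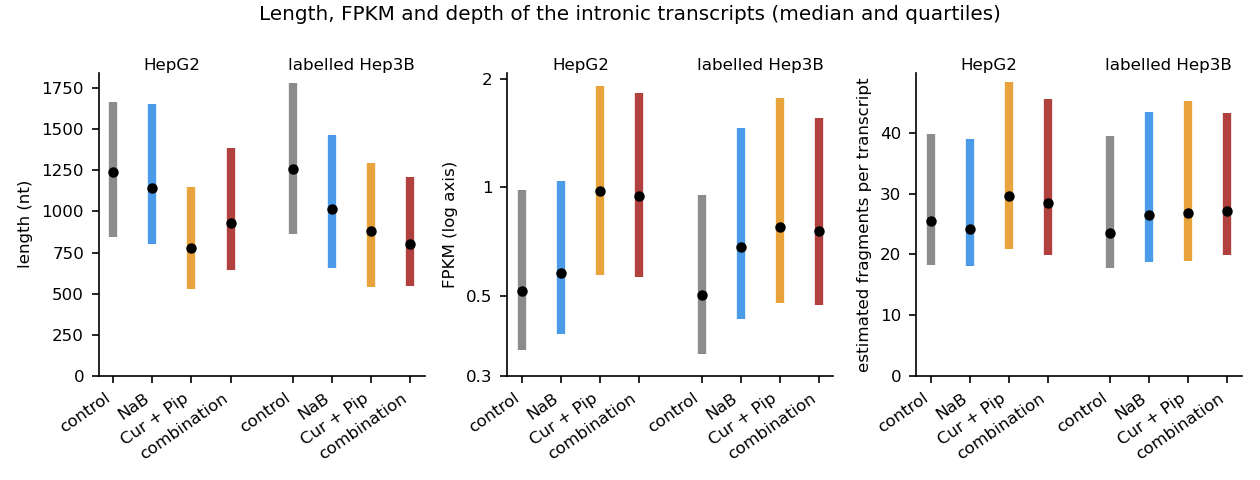
Median (point) and quartiles (bar) of length, FPKM (log axis) and estimated fragments per intronic transcript in each library. Length falls and FPKM rises from the control to the libraries with Cur and Pip in both lines, while the median number of fragments stays between 23.5 and 29.7.

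A small number of intronic transcripts had very high FPKM. Of the 16836, 380 had an FPKM of at least 10, and 155 of these were 300 nt or longer. A match of at least 90% identity over at least 80% of the region to a GENCODE transcript or to the mitochondrial genome was found for 31.6% of the transcripts at FPKM 10 or more and for 4.01% of the others. The 28 regions with a transcript at FPKM 100 or more comprised 20 shorter than 300 nt, 16 with such a match and 19 with similar sequence at 2 or more places in the genome. In 7 of the 28 the search found no match and a single place in the genome. For the regions in HSD17B12 (255 nt) and EXT2 (225 nt) it found no place at all, not even their own. The search can therefore miss similar sequence of short regions. One of the 7 with no match and a single place was a 509 nt region opposite to TSNAXIP1 (chr16:67810769-67811277). It was chosen after its values were seen. Spread over the 509 nt, it reached 4488, 1303, 106.9 and 91.7 FPKM under the label Hep3B. The transcripts behind these values were 166, 184, 197 and 319 nt long, at 13761, 3604, 276.2 and 146.3 FPKM. All but the last were shorter than the 300 bases of a read pair, so their FPKM is uncertain. The region's values fell as the transcripts became longer. In HepG2 it was listed at 0 in 3 libraries and at 2.79 FPKM after Cur and Pip, and no match to another transcript was found.

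Most intronic regions were assembled in a single library, although 56.3% of the transcripts lay in a region shared with another library. Joined across libraries wherever they shared at least 1 base on the same strand, the 16836 transcripts formed 10348 regions, of which 7348 (71.0%) were found in 1 library, 1823 in 2, 618 in 3, 300 in 4, 124 in 5, 72 in 6, 44 in 7 and 19 in all 8. Both lines shared 1230 regions, which is 11.9% of all and 41.0% of those in 2 or more libraries. The controls held 987 and 665 of the 16836 transcripts, and 87.2% of the regions had no transcript in either control. The 4 libraries with Cur and Pip held 73.3% of all members, and 70.2% of the regions were found in these libraries only. Of these regions, 29 were found in all 4 libraries with Cur and Pip and in no other. Beside them, 50 were found in all 4 HepG2 libraries and no other, and 38 in all 4 labelled Hep3B and no other. Recurrence of other transcript classes was not examined.

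A transcript of a control was more often seen again than a transcript of a treated library. A member counts as seen again when its region also holds a member of the other library, even where they do not overlap. The share was 75.5%, 64.5%, 44.6% and 47.2% in HepG2 (control, NaB, Cur and Pip, combination). It was 79.6%, 73.8%, 72.1% and 56.0% in the cells labelled Hep3B, so in each line it was lowest where members were most numerous. Of the regions of the HepG2 Cur and Pip library, 92.8% had no member in the HepG2 control, while 64.9% of the control's regions had none after Cur and Pip. In the cells labelled Hep3B the corresponding values were 78.1% and 53.3%. A region without a member can still be covered by a longer transcript: for 23.7% of the HepG2 control regions absent after Cur and Pip, another transcript of that library covered the region on the same strand, and the converse held for 4.45%. Between the HepG2 libraries with Cur and Pip, 31.5% of the transcripts of the Cur and Pip library recurred in the combination library and 34.4% of the latter in the former. Of the HepG2 control members, 48.9% recurred after NaB in HepG2 and 19.4% in the control labelled Hep3B.

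**Figure D3:**
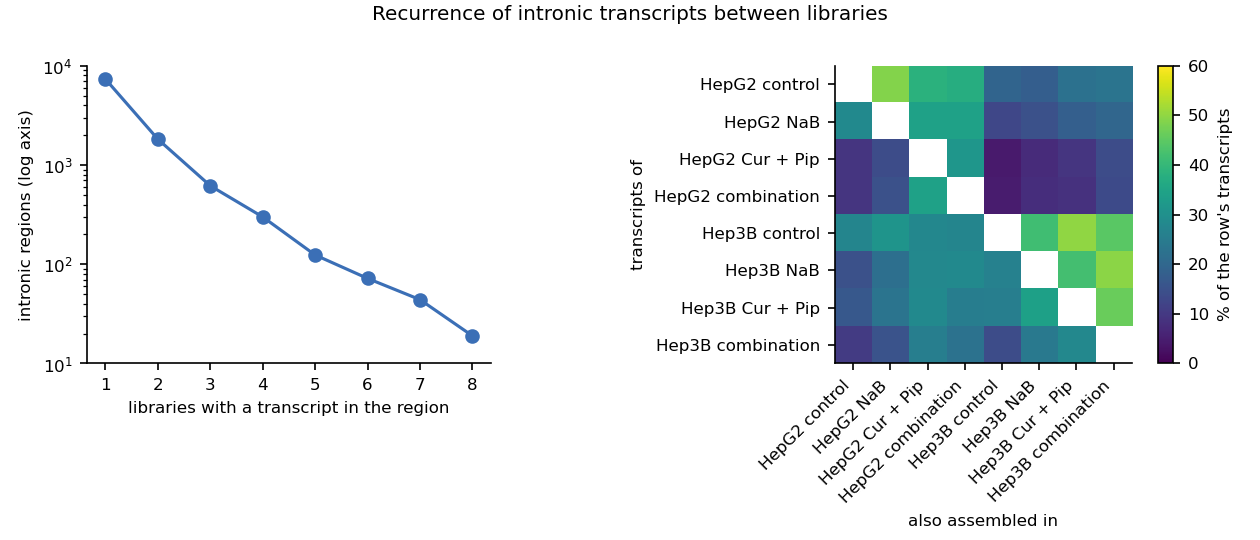
Left, number of intronic regions by the number of libraries that held a transcript in them (log axis), from 7348 in 1 library to 19 in all 8. Right, percent of the transcripts of each library (rows) that lay in a region with an intronic transcript of another library (columns). Of the HepG2 control transcripts 48.9% recur after NaB. The lowest share is 4.36%, of HepG2 after Cur and Pip in the control labelled Hep3B.

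The 19 regions found in every library were, with 3 exceptions, at low levels. The level of a region is spread over its length joined across libraries. It is therefore lower where a library assembled only a part of the region. Outside the 3 exceptions, single transcripts in these regions reached at most 3.95 FPKM. The region in DOCK9 (chr13:98812143-98812925, 783 nt) was at 26.6, 46.5, 27.5 and 39.9 FPKM in HepG2 and at 17.0, 36.8, 22.9 and 29.98 FPKM in the cells labelled Hep3B (control, NaB, Cur and Pip, combination). It was higher with NaB than without in all 4 matched pairs. AIDA itself, the gene whose transcript it matches, was at 27.9, 50.7, 23.2 and 33.1 FPKM and at 24.8, 49.2, 22.1 and 31.4 FPKM, so that the region was at 68.5 to 120.4% of the gene. The region opposite to DZIP1 (chr13:95619328-95619718, 391 nt) was at 5.23, 12.9, 22.04 and 10.3 FPKM in HepG2 and at 8.55, 17.8, 24.6 and 15.5 FPKM in the cells labelled Hep3B, lowest in the control and highest after Cur and Pip in both. EEF1A1 was at 1502 to 5649 FPKM, and the region at 0.186 to 1.34% of it. The region in MLIP (chr6:54209671-54210731, 1061 nt) was at 5.35, 6.94, 2.71 and 5.05 FPKM and at 4.40, 6.73, 4.97 and 5.58 FPKM, with LCLAT1 at 5.05 to 11.8 FPKM.

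For the other 16 regions no match to another spliced transcript was found. The highest of them lay opposite to ARSG, a lysosomal sulfatase (chr17:68374047-68378792), and was at 0.276, 0.422, 0.480 and 1.23 FPKM in HepG2 and at 2.40, 1.33, 1.40 and 0.810 FPKM in the cells labelled Hep3B. The orders of the 4 conditions in the 2 lines were opposite at their ends, with the control lowest in HepG2 and highest in the cells labelled Hep3B. Such values do not separate the level from the part of the region that was assembled. A region in SLC25A53, of the mitochondrial carrier family, was at 0.607 to 1.65 FPKM in HepG2 and 0.0974 to 0.719 FPKM in the other line. Regions in ENSA, an inhibitor of protein phosphatase 2A, and in ANKRD18A were at 0.112 to 0.798 and 0.250 to 0.862 FPKM. Sequence like that of the region in ANKRD18A was found at 5 places in the genome. A region in the lncRNA ENSG00000284116 had 1.53 and 1.82 FPKM in the control and NaB libraries of HepG2 and 0.226 to 0.491 FPKM in the other 6, and it has 6 similar places in the genome. The regions opposite to the lncRNAs SYNPO2L-AS1 and ENSG00000224919 were at 0.435 to 0.991 and 0.210 to 0.744 FPKM. Sequence like that of the region opposite to ENSG00000224919 was found at 7 places.

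**Figure D4:**
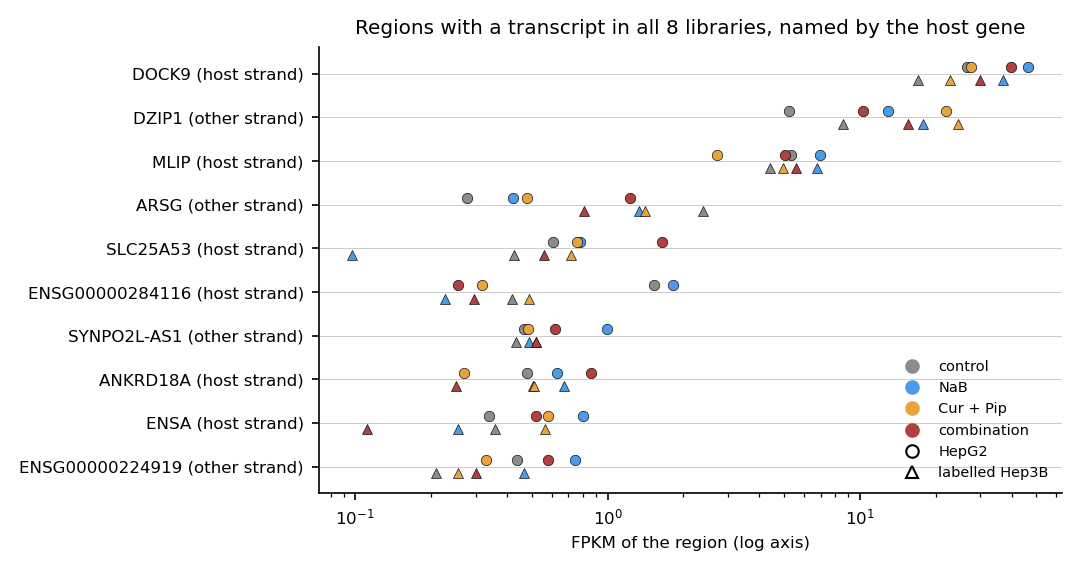
FPKM (log axis) of the 10 regions with the highest mean level among the 19 assembled in all 8 libraries, named by the host gene; circles are HepG2, triangles the libraries labelled Hep3B, and colours the condition. The regions in DOCK9, DZIP1 and MLIP, which match spliced transcripts of other genes, lie above 2 FPKM in every library, and the others at or below 2.40 FPKM.

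Few regions could be tested for a change of level. A limma fit on log2(FPKM + 1) with line, NaB and Cur and Pip as terms was made over one table of genes, intronic regions and single-exon regions outside genes with a mean FPKM of at least 1, which kept 357 (3.45%) of the 10348 intronic regions. Of these, 149 had a transcript in 1 library only and 4 in all 8. A region that passes this filter through 1 library or 1 group is bound to be higher there, so neither the number of regions called nor their direction is read as a result. For Cur and Pip, 0 of 357 intronic regions had an adjusted p under 0.05, where 0.0149% of all 13405 features passed adjustment, and 33 (9.24%) had an unadjusted p under 0.05, beside 1795 of 12829 genes (14.0%). For NaB, 0 passed, again beside 0.0149% of all features, and 7 (1.96%) had an unadjusted p under 0.05, beside 1134 genes (8.84%). For the line term 48 of 357 (13.4%) had an adjusted p under 0.05, beside 31.9% of all features. In 41 of the 48 the line with the lower level had no transcript in any library, so these entered only through the line in which they were present. 

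The regions with the lowest p for Cur and Pip were found mainly in the 4 libraries with these agents. A region in the lncRNA ENSG00000287279 (chr6:28642310-28642749) was at 1.99, 2.58, 2.75 and 5.53 FPKM in the HepG2 Cur and Pip, HepG2 combination, Hep3B Cur and Pip and Hep3B combination libraries and was not assembled in the others. A region in ASIP, the agouti signalling protein (chr20:34200408-34200766), was at 74.2, 8.25, 27.7 and 42.0 FPKM in the same libraries and not assembled in the others. It is 94.1% identical to a transcript of the initiation factor EIF5, which was at 45.1 to 94.2 FPKM in all 8 libraries. Regions opposite to EXOC6B, of the exocyst complex, and in RCAN2, a regulator of calcineurin, showed the same presence at 0.863 to 3.49 and 0.615 to 3.72 FPKM, and a region in LINC02934 was also present after NaB in the cells labelled Hep3B, at 4.25 FPKM beside 4.71 to 16.3 FPKM with Cur and Pip. For the 4 regions absent without Cur and Pip the filter was passed through that group alone, so no difference or p is given.

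For NaB the lowest p belonged to a region opposite to MDN1, a ribosome assembly factor, at 0, 1.87, 0.806 and 3.98 FPKM in HepG2 and 2.48, 8.32, 10.7 and 14.9 FPKM in the cells labelled Hep3B (fitted log2 difference 1.21 ± 0.26 SE, adjusted p = 0.539). It was higher with NaB in all 4 matched pairs, and is 97.3% identical to a transcript of the lncRNA GAS5. The region in DOCK9 followed (0.69 ± 0.20, adjusted p = 0.539). Next were regions in MOSPD1, ATF3 (a stress-induced transcription factor) and opposite to AKAP6 (a kinase anchor protein), the last with an adjusted limma p of 0.575. The region in MOSPD1 was at 0, 0, 0.668 and 7.78 FPKM in HepG2 and at 0, 2.78, 0 and 3.36 FPKM in the other line. The regions in MOSPD1 and ATF3 passed the filter only through the libraries with NaB, so no difference or p is given for them. The region in ATF3 was at 0, 1.98, 0 and 16.6 FPKM in HepG2 and at 1.04, 2.16, 4.53 and 6.78 FPKM in the other line, and matches HNRNPH1 at 97.5% identity. The region opposite to AKAP6 matches the mitochondrial genome at 96.1% and reached 634.9 FPKM in the HepG2 combination library, against 0 to 20.8 FPKM in the other 7.

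The regions with the lowest p between the lines were present in the libraries labelled Hep3B only, and 4 of the 5 were shorter than 300 nt. A 203 nt region in MEF2C-AS1 (chr5:88975547-88975749) was at 433.6, 382.4, 322.2 and 338.4 FPKM there and was not assembled in HepG2. A 194 nt region opposite to POLDIP3 was at 961.2, 619.9, 548.9 and 426.1 FPKM and is 97.4% identical to BCYRN1, a small cytoplasmic RNA. Regions opposite to ENSG00000223720 and INPP5B, an inositol phosphatase, were at 440.0 to 1113 and 144.6 to 397.1 FPKM. The search found no match for them, but it can miss similar sequence of such short regions. A region opposite to ENSG00000265994 was at 6.31 to 14.0 FPKM and is 91.1% identical to LINC03061, which was at 0 to 0.547 FPKM. None of the 5 was assembled in HepG2, so they passed the filter through the other line alone, and no difference or p is given.

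Hosts were more often long genes, and most hosted few transcripts. The members lay in 5213 host genes, of which 4029 (77.3%) were protein coding and 1184 (22.7%) lncRNA genes. Of the hosts, 41.1% held 1 member over all libraries, 6.0% held 10 or more, and 46 genes held a member in every library. Hosts per library numbered 726, 1131, 2689 and 2353 in HepG2 and 499, 784, 1037 and 1718 in the cells labelled Hep3B. Of protein-coding genes of at least 100 kb that reached an FPKM of 1, 5.78% held a transcript on their own strand in the HepG2 control, 8.47% after NaB, 29.5% with Cur and Pip, and 27.0% with all 3 agents. For genes under 10 kb the values were 0.506%, 0.473%, 2.82% and 1.42%. In the cells labelled Hep3B, 3.51%, 5.26%, 7.54% and 12.7% of the genes of at least 100 kb held one. The share rose with gene length in every library.

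**Figure D5:**
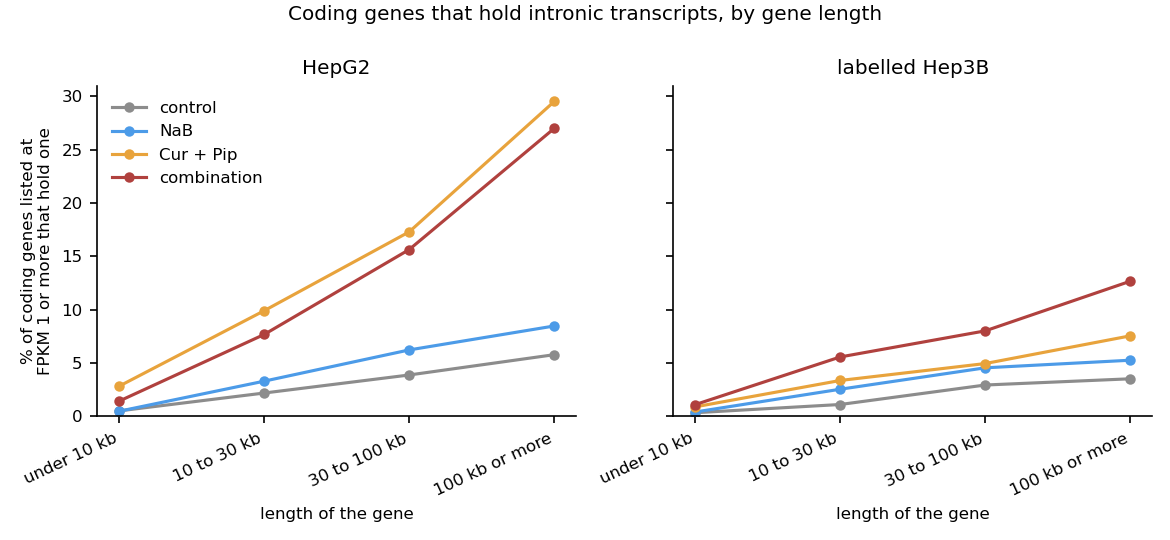
Percent of protein-coding genes that reached an FPKM of 1 and held an intronic transcript on their own strand, by gene length and library. The share rises with length in every library and reaches 29.5% for genes of 100 kb or more in HepG2 after Cur and Pip.

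Most transcripts ran on the host strand. The share on the host strand was 83.8%, 82.5%, 87.0% and 87.3% in HepG2 and 78.0%, 78.9%, 77.9% and 74.3% in the cells labelled Hep3B, so all HepG2 values were above all of the other line. Of the protein-coding hosts with a transcript on their strand, 77.9 to 86.4% had other transcripts assigned to them in the same library. Assigned were transcripts with at least 50% of their bases in exons of the gene, single-exon ones included. The median FPKM of these hosts was 6.41 to 7.97. All protein-coding genes with an assigned transcript had medians of 10.4 to 12.4 FPKM. Of hosts with a transcript only on the other strand, 50 to 65.0% had an assigned transcript. When the body of each host was cut into 3 equal parts, the part at the 5′ end held 38.4 to 45.9% of the transcripts on the host strand, against 33.8 to 34.3% of the exon-free bases. The part at the 3′ end held 24.4 to 30.3%, against 31.4 to 32.1% of the bases. The 5′ share was above the share of bases in all 8 libraries. The nearest exon upstream was a median of 1576 to 2216 nt away and the nearest downstream 3005 to 3753 nt, so the transcripts lay closer to the 5′ ends of introns.

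The sequences of the transcripts were set beside their flanks. Their median GC content was 44.5%, with 45.1% in the equally long stretch upstream and 42.9% downstream. These stretches were not limited to the exon-free gap and can include annotated exons. Pooled over all bases of the exon-free gaps that hold the transcripts, GC was 42.2%, which is no median per transcript. The hexamer AATAAA, read on the transcript's strand, was found in 48.02% of the transcripts, and in 45.5% and 56.2% of the equally long upstream and downstream stretches. It fell in the last 50 bases of 6.103% and in the first 50 bases of 3.68%. A run of 10 A was found in 30.2% of the transcripts, in 20.3% of the upstream and in 23.4% of the downstream stretches. The share ranged from 25.4% in the HepG2 control to 37.9% in the combination library labelled Hep3B. In the 50 bases after the end of the transcript it was 1.64%, and in the 50 before its start 2.18%. Only the reference letters were searched, on the transcript's strand, and a match is no evidence of a used site.

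The exonic levels of host genes, summed over the transcripts assigned to them, were set beside those of all genes. An absolute log2((FPKM + 1) treated / (FPKM + 1) control) above 1.5 was found in HepG2 for 249 of 3130 hosts after NaB (7.96%, beside 9.75% of all genes), 575 after Cur and Pip (18.4%, beside 19.2%) and 557 after the combination treatment (17.8%, beside 19.5%). In the cells labelled Hep3B it was 203 of 1637 hosts after NaB (12.4%, beside 12.0%), 148 after Cur and Pip (9.04%, beside 10.4%) and 233 after the combination treatment (14.2%, beside 15.0%). With a pseudocount of 5 in place of 1 the shares of hosts were below those of all genes in all 6 comparisons, for example 2.52% beside 4.44% after NaB in HepG2 and 2.51% beside 4.95% after Cur and Pip in the cells labelled Hep3B. There is 1 library on each side, so no test was made. Exonic levels were also read by how many more intronic transcripts a gene held than in the control. In HepG2 after Cur and Pip the median log2 fold change was -0.04 for the 9281 genes with an equal number, 0.09 for the 952 with 1 more, 0.18 for the 511 with 2 to 4 more and 0.48 (quartiles 0.05 and 0.97) for the 49 with 5 or more. After the combination treatment in HepG2 the medians were -0.04, 0.08, 0.12 and 0.12 in the same classes, with 50 genes in the last. After NaB in HepG2 they were 0.01, 0.04, -0.02 and -0.19, with 121 and 5 genes in the last classes. In the cells labelled Hep3B the medians for genes with an equal number were -0.16 (NaB), -0.02 (Cur and Pip) and -0.09 (combination), and those for genes with 5 or more further transcripts were -0.73, -0.20 and -1.16, from 1, 4 and 5 genes. The medians had no order common to all 6 comparisons. A gene's own intronic RNA and its exonic level come from the same library, so these values are a description.

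The 10 hosts with most members included genes with members in both lines and genes with members in HepG2 only. ANKRD18A, an ankyrin-repeat gene, had the most, 49 over the 8 libraries, with 3 to 9 in each, and showed no order by treatment. Its 49 transcripts fell into 8 regions, all on the host strand. ENSA had 33 transcripts in 3 regions, with 2 to 7 in each library. BACH1, a repressor of antioxidant genes such as heme oxygenase 1, had 42, of which 18 were on its strand, with 2, 3, 5 and 2 in HepG2 and 6, 6, 7 and 11 in the cells labelled Hep3B. TTC28, a tetratricopeptide-repeat gene, held 3, 3, 11 and 9 in HepG2 and 2, 4, 4 and 5 in the other line. CDR2, a cerebellar degeneration antigen, held 4, 7, 10 and 4 and 1, 2, 7 and 4. EFCAB13 held 36, of which 4 were on its own strand.

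A set of 3 lncRNA genes among the 10 held their transcripts mainly in HepG2. ENSG00000227088 had 3, 7, 16 and 20 in HepG2 and 0 in the cells labelled Hep3B, all on its strand. No exonic transcript was assigned to it in any library. ALOX12P2, a lipoxygenase pseudogene annotated as lncRNA, had 3, 7, 12 and 10 in HepG2 and 0 in the other line. MIR4435-2HG, the host gene of a microRNA, had 1, 1, 20 and 11 in HepG2 and 0, 1, 0 and 2 in the cells labelled Hep3B. Its exonic level was 88.9, 86.6, 187.2 and 276.9 FPKM in HepG2 and 81.5, 136.3, 120.3 and 59.5 FPKM in the other line. The 20 transcripts of the HepG2 Cur and Pip library in MIR4435-2HG were 444 to 2459 nt long and had a median of 1.02 FPKM.

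The hosts that gained most between control and combination treatment differed between the lines. In HepG2 they were ENSG00000227088, MIR4435-2HG, NCOA3, LINC00511 and RABGEF1. NCOA3, a coactivator of nuclear receptors, held 0, 0, 5 and 14 transcripts in HepG2 and 0 in every library labelled Hep3B. The 14 after the combination treatment were 328 to 1933 nt long, at a median of 3.75 FPKM. The exonic level of NCOA3 was 12.98, 13.1, 31.4 and 23.2 FPKM. LINC00511, a lncRNA, held 2, 2, 1 and 13, and its exonic level was 27.5, 19.9, 21.1 and 16.8 FPKM. RABGEF1, an activator of the endosomal GTPase RAB5, held 0, 2, 6 and 10 in HepG2 and 0, 1, 0 and 3 in the other line.

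In the cells labelled Hep3B the hosts with the largest gain were TRPC6, DAPK2, ADARB2, LRRC23 and MICALL2. TRPC6, a calcium-permeable channel, held 2, 4, 4 and 12 transcripts there and 0 in HepG2, 10 of the 22 on its own strand. No exonic transcript was assigned to it in any library. DAPK2, a death-associated kinase, held 0, 3, 0 and 7, at an exonic level of 4.39, 1.40, 3.40 and 1.42 FPKM. ADARB2, an RNA-binding relative of the adenosine deaminases that edit RNA, held 0, 3, 2 and 7, at 12.1, 4.88, 2.80 and 4.41 FPKM. LRRC23, a leucine-rich repeat gene, held 0, 0, 1 and 6 there and 1, 1, 2 and 4 in HepG2. MICALL2, an effector of small Rab GTPases, held 0, 0, 0 and 6 there and 0, 0, 5 and 4 in HepG2. From control to combination in the line of the gain, exonic levels were higher in NCOA3, MIR4435-2HG, RABGEF1 (10.1 and 20.3 FPKM) and MICALL2 (0 and 3.94 FPKM). They were lower in LINC00511, DAPK2 and ADARB2. ENSG00000227088, TRPC6 and LRRC23 were at 0 FPKM in both libraries. There was 1 library at each point.

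Among the pathway lists, the share of genes that held an intronic transcript on their own strand ranged from 4.35% (ribosomal proteins) to 27.8% (ferroptosis and iron). Hosts and transcripts of list genes are counted from here on by the gene's own strand, unless the other strand is named. Over all libraries, 3081 of the 12873 protein-coding genes that reached an FPKM of 1 (23.9%) held a transcript on their strand. Genes that hold a snoRNA or scaRNA gene, whose small RNAs are cut out of introns, did so in 65 of 227 cases (28.6%), and genes that hold a microRNA gene in 227 of 754 (30.1%); their median gene lengths were 47148 and 58926 nt, against 32802 nt for all. In HepG2, 9, 4, 47 and 36 of the 227 snoRNA host genes held one (control, NaB, Cur and Pip, combination), beside 378, 582, 1723 and 1523 of the 12873. TTC28 had 24 on its strand, TTC6 22 and KLHL23 12. Among the genes that hold a microRNA, TIAM2 and TMEM181 had 17 each and PDE4D, a cAMP phosphodiesterase, 15.

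Of the ferroptosis and iron genes, 5 of 18 held an intronic transcript on their own strand. GCLC, the catalytic subunit of the rate-limiting enzyme of glutathione synthesis, held 14, all of them in HepG2 after Cur and Pip and none in the other 7 libraries. They were 427 to 3574 nt long, 17756 nt in all, at 0.426 to 2.73 FPKM. The exonic level of GCLC was 23.4, 27.9, 88.6 and 75.3 FPKM in HepG2 and 19.5, 15.9, 34.4 and 28.8 FPKM in the cells labelled Hep3B. The combination library of HepG2 thus had an exonic level close to that after Cur and Pip without any intronic transcript. ACSL4, an acyl-CoA synthetase, held 3 and CP, ceruloplasmin, 2.

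Of the cell cycle genes, 5 of 22 G1/S genes and 3 of 19 G2/M genes were hosts on their own strand. RRM2, a subunit of ribonucleotide reductase, held 1, 0, 3 and 3 in HepG2 and 0, 1, 0 and 2 in the other line. They were at 0.212 to 0.833 FPKM, with an exonic level of RRM2 of 12.1 to 145.0 FPKM. RB1 held 2 and E2F1 1. AURKB, KIF11 and MKI67 held 1 each, all in HepG2 with Cur and Pip. Of 28 apoptosis genes and p53 targets, 5 were hosts on their own strand. MCL1, an anti-apoptotic BCL2 relative, held 7, BCL2L11, which encodes the pro-apoptotic BIM, 4, and the initiator caspase CASP8 3. CASP8 held 1 more on the other strand, in the combination library labelled Hep3B. BBC3, which encodes the pro-apoptotic PUMA, held 2, both in HepG2 after Cur and Pip, of 416 and 426 nt at 2.08 and 3.91 FPKM. Its exonic level was lowest in the control, at 11.7 FPKM, and highest after the combination treatment, at 40.1 FPKM, among the HepG2 libraries. GADD45A, CDKN1A, PMAIP1 and GAPDH, which are 3134 to 10878 nt long, held none in any library.

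Of 30 splicing factor and CLK genes, 6 were hosts on their own strand. HNRNPA2B1 held 1, 0, 4 and 2 in HepG2 and 0, 2, 0 and 1 in the other line, and CLK3 and HNRNPH1 held 2 each. Of 16 genes of the ATF4 and CHOP stress response 2 were hosts: ATF3 held 6, all in the region that matches HNRNPH1, and SLC7A11, the cystine transporter, 1. Of 23 ribosomal protein genes only RPS3 was one, with 1, 0, 3 and 1 in HepG2. On the other strand RPS3 held 1 each in the NaB and combination libraries labelled Hep3B. Of 19 growth factor receptor and MAPK genes 4 were hosts, with 4 transcripts in MAP3K5, all in the cells labelled Hep3B, and 2 each in EGFR and MAP3K1. EGFR held 1 more on the other strand, in HepG2 after Cur and Pip. Of 29 hepatocyte genes 2 were hosts on their own strand, CYP3A5 with 5 and HNF4A with 4, and no fibroblast, endothelial or leukocyte gene was. On the other strand HNF4A held 2 in the HepG2 control and 3 after NaB in HepG2. The shares of list genes stand beside 23.9% of all coding genes. Median gene lengths ranged from 2621 nt (leukocyte genes), 4537 nt (ribosomal proteins) and 10058 nt (hepatocyte genes) to 45691 nt (growth factor receptors and MAPK genes).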

How the data were processed

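RNA-seq transcripts of 8 libraries were analysed, 1 per condition and line. According to the methods, libraries were made with a directional kit and read as 2 × 150 nt pairs; the authors mapped reads to GRCh38 with STAR and assembled each library with Cufflinks, and the submitters' notes also name FastQC and Cuffdiff (no version numbers appear in those sources). What the authors deposited is, for every transcript, an FPKM, a 95% interval and coverage, held with other attributes in 1 text column; no counts were read. Totals of estimated fragments use transcripts of at least 300 nt. Intervals cover the estimation error of 1 library only.

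Members were found with GENCODE release 44. A member's host was the containing gene, same strand first. A region is the union of members sharing at least 1 base on the same strand, and its FPKM is the sum of FPKM times length divided by the length of the union. Gene FPKM, the exonic level, is the sum over other transcripts with at least 50% of their exonic bases in exons of the gene. Single-exon transcripts count in it, so it is no measure of spliced RNA alone. Sequences were aligned with minimap2 2.31-r1302 to GENCODE transcripts and the GRCh38 genome at 90% identity and 80% coverage. Tests were exact permutations over the libraries, and linear models (limma 3.58.1, R 4.3.3) of log2(FPKM + 1) with 4 residual degrees of freedom and Benjamini-Hochberg adjustment over the table. Overlap code was checked against bedtools 2.31.1 and limma was tested on simulated data. p-values measure the spread between these libraries, which may be technical.

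Named were the 10 hosts with most members, the 10 regions of highest mean among those in all libraries, the 5 hosts with the largest gain in each line, the 5 regions with the lowest p per term, up to 3 genes per list and genes the study names; results for some of these genes are not reported here. The members, lists and rules were chosen with earlier results of these data known. Alternatives were FPKM, fragment, length, distance and host filters, other pseudocounts, no filter, recurrence rules, other variance models and each library left out; leaving out members that match a spliced transcript was chosen after seeing the data.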

Additional observations from a re-analysis of the deposited data

Results flagged for a closer look

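The combination treatment was compared with Cur and Pip alone in each line, with 1 library on each side. From Cur and Pip to the combination treatment the number of intronic transcripts changed by -560 in HepG2, from 4520 to 3960, and by 991 in the cells labelled Hep3B, from 1431 to 2422. Over the same comparison the median length changed by 151 nt in HepG2, from 777 to 928 nt, and by -80 nt in the cells labelled Hep3B, from 884 to 804 nt. Both were picked out because the lines moved in opposite directions; the difference between the lines was not tested. The NaB dose differed between the lines, and its part in the difference cannot be told apart from that of the line.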

How the results depend on the processing

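None of the 6 exact permutation tests passed adjustment under any alternative run, and the number of libraries allowed none to pass. With an FPKM of at least 1, Cur and Pip reached p = 0.0286 in the exact permutation test, the smallest the design allows, and 0.0857 after adjustment, with 1401 transcripts against 306.5 (n = 4 libraries each). Leaving out 1 library at a time moved the difference for NaB between -143.1 and 1281 (407.5 with all) and turned its direction without the HepG2 combination library (-143.1) and without the control labelled Hep3B (-4.42); the difference between the lines lay between 833.4, without the HepG2 Cur and Pip library, and 2011, without the HepG2 control, and that for Cur and Pip between 1479 and 2508. As shares of transcripts, the difference between the lines lay between 2.32 and 5.17 percentage points, lowest without the HepG2 Cur and Pip library, and that for NaB between 0.043 and 3.59. Without members that match a spliced transcript no direction changed. Limma called 2 intronic regions for Cur and Pip with a pseudocount of 0.1, in ASIP and ENSG00000287279, both absent without Cur and Pip, so that the pseudocount sets their differences, and 0 under every other alternative, leaving out 1 library included. The 48 regions called for the line, beside 31.9% of all features, became 21 with a pseudocount of 0.1 (27.9% of all features) and 31 with 5 (31.4%). They became 19 with an interaction term (25.5%) and 0 among regions in all 8 libraries, where 4 were tested (33.2%). Leaving out 1 library gave 17 to 52 regions, beside 22.73 to 26.15% of all features. The number was 21, 23 and 22 without the NaB, Cur and Pip or combination library of HepG2. It was 18, 17 and 19 without those labelled Hep3B. The cause was not tested. The share of members seen in another library was 56.3%, and 39.1% when at least 50% of both members had to overlap and 42.6% at an FPKM of at least 1. With a pseudocount of 0.1 in place of 1, hosts past the fold threshold numbered 412 after NaB in HepG2 (13.2%, beside 15.5% of all genes). They numbered 871 after Cur and Pip (27.8%, beside 28.8%) and 826 after the combination treatment (26.4%, beside 29.2%). In the cells labelled Hep3B they numbered 334 (20.4%, beside 19.7%), 245 (14.97%, beside 15.99%) and 373 (22.8%, beside 23.1%) in the same order. With a pseudocount of 5 they numbered 79, 190 and 200 in HepG2 and 59, 41 and 76 in the other line (2.51 to 6.39% of hosts, beside 4.44 to 8.89% of all genes). With genes restricted to those found in every library of the line they numbered 72 in HepG2 after NaB (2.895% of hosts, beside 3.19% of all genes). After Cur and Pip and the combination treatment they numbered 304 (12.2%, beside 12.3%) and 289 (11.6%, beside 11.8%). In the other line they numbered 64 (4.92%, beside 5.58%), 32 (2.46%, beside 2.97%) and 84 (6.457%, beside 6.815%). In these settings the share of all genes moved in the same direction. With 1 library per condition and line there are no replicate numbers to pair by; permuting within lines or conditions gave exact p of 0.0556 for Cur and Pip, 0.667 for NaB and 0.125 for the line. Depth limits single transcripts: the median member rests on 23.5 to 29.7 estimated fragments.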
